A study of Mus musculus with 4 samples.

Results

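The Mylk/Mctp2 neurons are a cluster of 166 excitatory nuclei in the mouse hindbrain, listed as cluster 42 in the deposited annotation and named there after *Mylk* and *Mctp2*. They were chosen as the nuclei that passed the quality filter and carried that cluster name, and they made up 166 of 39461 kept nuclei and 1.32% of 12539 neurons. By size they ranked 10 among 134 neuronal clusters, whose median size was 86.5 nuclei. The study asked how hindbrain neurons respond when AgRP neurons of the hypothalamus are switched on while POMC neurons are switched off. Single-nucleus RNA was sequenced from a piece of hindbrain that holds the area postrema and nucleus tractus solitarii, taken from mice given clozapine N-oxide (CNO, 3 mg/kg), and tissue was taken 1 h later, without food. The AgRP-Gq;POMC-Gi mice were AgRP-IRES-Cre+/-;hM3DGqfl/-;POMC-Dre+/-;hM4DGifl/-, so that the activating receptor hM3DGq follows the *Agrp* gene and the silencing receptor hM4DGi follows the *Pomc* gene. The controls, labelled WT, carried both receptor alleles but neither recombinase by the study's methods (AgRP-IRES-Cre-/-;hM3DGqfl/-;POMC-Dre-/-;hM4DGifl/-), and they received the same CNO. Mice were 12 to 20 weeks old, both sexes were used, tissue of 1 condition was pooled (2 mice per group by the study's methods), and each group gave 2 libraries. The nuclei of the cluster numbered 18 and 27 in the 2 controls and 48 and 73 in the 2 libraries of AgRP-Gq;POMC-Gi mice.

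*Mylk* encodes myosin light chain kinase, a calcium- and calmodulin-dependent enzyme that phosphorylates the regulatory light chain of myosin II and is best known from smooth muscle contraction. *Mctp2* encodes a membrane protein with several C2 domains, the module with which many vesicle proteins bind calcium. Excitatory neurons of the hindbrain release glutamate that is loaded into vesicles by VGLUT2, the product of *Slc17a6*, whereas inhibitory neurons load GABA and glycine through the product of *Slc32a1*. Among dorsal hindbrain and spinal lineages, the LIM-homeodomain factors *Lhx2* and *Lhx9* and the Bar-class factors *Barhl1* and *Barhl2* mark excitatory neurons that descend from *Atoh1*-expressing progenitors.

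*Mylk* (ENSMUSG00000022836, chr16:34745210-35002420, plus strand, GRCm38) was at 332, 355, 349.8 and 352 CPM, that is unique molecular identifiers (UMIs) per 1000000 UMIs of the summed nuclei, in control replicates 1 and 2 and AgRP-Gq;POMC-Gi replicates 1 and 2. The other neurons of the same libraries were between 6.72 and 7.75 CPM. *Mctp2* (ENSMUSG00000032776, chr7:72077830-72306608, minus strand) was at 148, 166, 165 and 129.6 CPM, against 10.2 to 14.0 CPM in the other neurons. In each of the 4 libraries both genes lay far above the other neurons. A *Mylk* UMI was found in 147 of the 166 nuclei (88.6%, 95% Clopper-Pearson interval 82.7 to 93.0%), in 6.10% of the other neurons and in 0.345% of oligodendrocytes. An *Mctp2* UMI was found in 120 nuclei (72.3%, 64.8 to 78.9%), in 6.13% of the other neurons and in 0.0535% of oligodendrocytes. Median depths were 11267, 8658 and 2460.0 UMIs in the 3 populations, and after each nucleus was thinned to 2000 UMIs the *Mylk* shares were 48.2%, 1.46% and 0.254%. This is a description of the genes that defined the cluster, so no test was made of it. The stretches upstream of both genes are shown because these are the genes that set the nuclei apart. Each is the 250 bases before the RefSeq start (GRCm38.p6), read 5′ to 3′ on the gene's strand, with the letters CCAAT, or ATTGG on the opposite strand, in capitals.
Mylk, chr16:34784700-34784949, plus strand: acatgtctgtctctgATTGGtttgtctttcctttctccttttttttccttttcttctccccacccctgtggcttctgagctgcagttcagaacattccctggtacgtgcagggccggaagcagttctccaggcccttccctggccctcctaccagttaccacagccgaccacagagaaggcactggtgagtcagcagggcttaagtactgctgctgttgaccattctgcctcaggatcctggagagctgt
Mctp2, chr7:72306596-72306845, minus strand: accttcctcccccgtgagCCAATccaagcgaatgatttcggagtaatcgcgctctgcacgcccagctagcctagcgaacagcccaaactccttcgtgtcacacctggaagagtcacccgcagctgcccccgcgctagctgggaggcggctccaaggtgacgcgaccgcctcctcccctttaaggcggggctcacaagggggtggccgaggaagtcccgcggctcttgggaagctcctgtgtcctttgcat
The *Mctp2* stretch held 19 CpG pairs and 63.2% G and C. The *Mylk* stretch, which lies inside the longer annotated gene, held 3 CpG pairs and 53.6% G and C. The median of all 32851 windows in the table was 6 CpG pairs and 52.4% G and C. A match to CCAAT was present in 33.8% of all windows, in 37.5% of the 27025 genes they belong to, and in 10 of the 21 leading genes (below) with an entry. TAATTA, the core letters that many homeodomain factors bind, was in 4.84% of windows and 5.65% of genes, in neither of the 2 sequences shown, and in 3 of those 21 genes (*Lpar1*, *Synpo2* and *2610028E06Rik*).

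The nuclei of the cluster were deeply sampled. They held 249883, 318379, 580316 and 895087 UMIs in the 4 libraries, with a median of 4032 genes per nucleus, against 3558 in the other neurons. The 6 oligodendrocyte markers summed to 248 and 157 CPM in the controls and 110.3 and 133 CPM in AgRP-Gq;POMC-Gi, against 152 to 304 CPM in the other neurons and 12690.4 CPM in oligodendrocytes. The 6 astrocyte markers summed to 60.0 and 56.5 CPM and to 27.6 and 26.8 CPM. Both sums were thus lower in both AgRP-Gq;POMC-Gi libraries. Markers of endothelial cells summed to at most 4.00 CPM and those of mural and smooth muscle cells to at most 9.42 CPM. *Pdgfra*, *Cspg4*, *Cldn5*, *Pdgfrb* and the smooth muscle gene *Cnn1* had 0 UMIs in the cluster, and *Myh11* and *Acta2* were at 0.431 CPM. *Tagln*, another smooth muscle gene of the list, was at 2.85 CPM. High *Mylk* was thus not accompanied by high levels of the listed contractile genes of smooth muscle. No barcode of the cluster recurred in another library. Over all 39461 kept nuclei 168 barcodes did, too few for the 0 in the cluster to set it apart. *Xist*, which is transcribed in female cells, was at 612, 219.9, 312 and 0 CPM in the cluster. AgRP-Gq;POMC-Gi replicate 2 thus showed no female nuclei there, unlike the other libraries, and the labels do not give the sex of a library. The choroid plexus gene *Ttr* was at 0, 1011, 5.17 and 474 CPM. Both genes varied between replicates within a group, and their part in the results below was not tested. The labels do not tell the mice of a library apart, so that p-values measure the spread between libraries, which may in part be technical.

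A set of 25 leading genes was read from the nuclei by a fixed rule, as the genes detected in 25% or more of the nuclei whose level most exceeded that of the other neurons. After *Mylk* came *Lpar1*, a receptor for lysophosphatidic acid, at 139 ± 35.1 CPM (SD, n = 4 libraries) against 6.15 CPM in the other neurons. *Adamtsl3*, a secreted matrix protein, was at 193 ± 8.22 CPM against 14.7 CPM. *Hgf*, the ligand of the receptor Met, was at 65.1 ± 11.2 CPM against 2.19 CPM, and *Kitl*, the ligand of the receptor Kit, at 127 ± 7.36 CPM against 14.6 CPM. *Piezo2*, a mechanically gated cation channel of sensory neurons, was at 142 ± 14.8 CPM against 10.2 CPM and had a UMI in 57.2% of the nuclei. *Vav3*, an exchange factor for small GTPases, was at 1145 ± 95.6 CPM against 151 CPM and had a UMI in 97.6% of the nuclei. *Pde5a*, which degrades cyclic GMP, was at 103 ± 29.4 CPM against 10.7 CPM. Cytoskeletal genes among the 25 were *Shroom3*, which shapes epithelial cells (89.1 ± 19.0 against 5.32 CPM), and *Synpo2*, an actin-bundling protein (117 ± 44.8 against 14.7 CPM). Some of the 25 were also high outside neurons. In oligodendrocytes *Lpar1* was at 126 CPM, close to its level in the cluster. *Shroom3* (155 CPM) and *Htra1* (175 CPM, against 138 CPM in the cluster) were higher there than in the cluster. The other leading genes reached at most 30.0 CPM in oligodendrocytes. In every library each of the 25 genes was higher in the cluster than in the other neurons, as the rule that picked them favours.

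**Figure D1:**
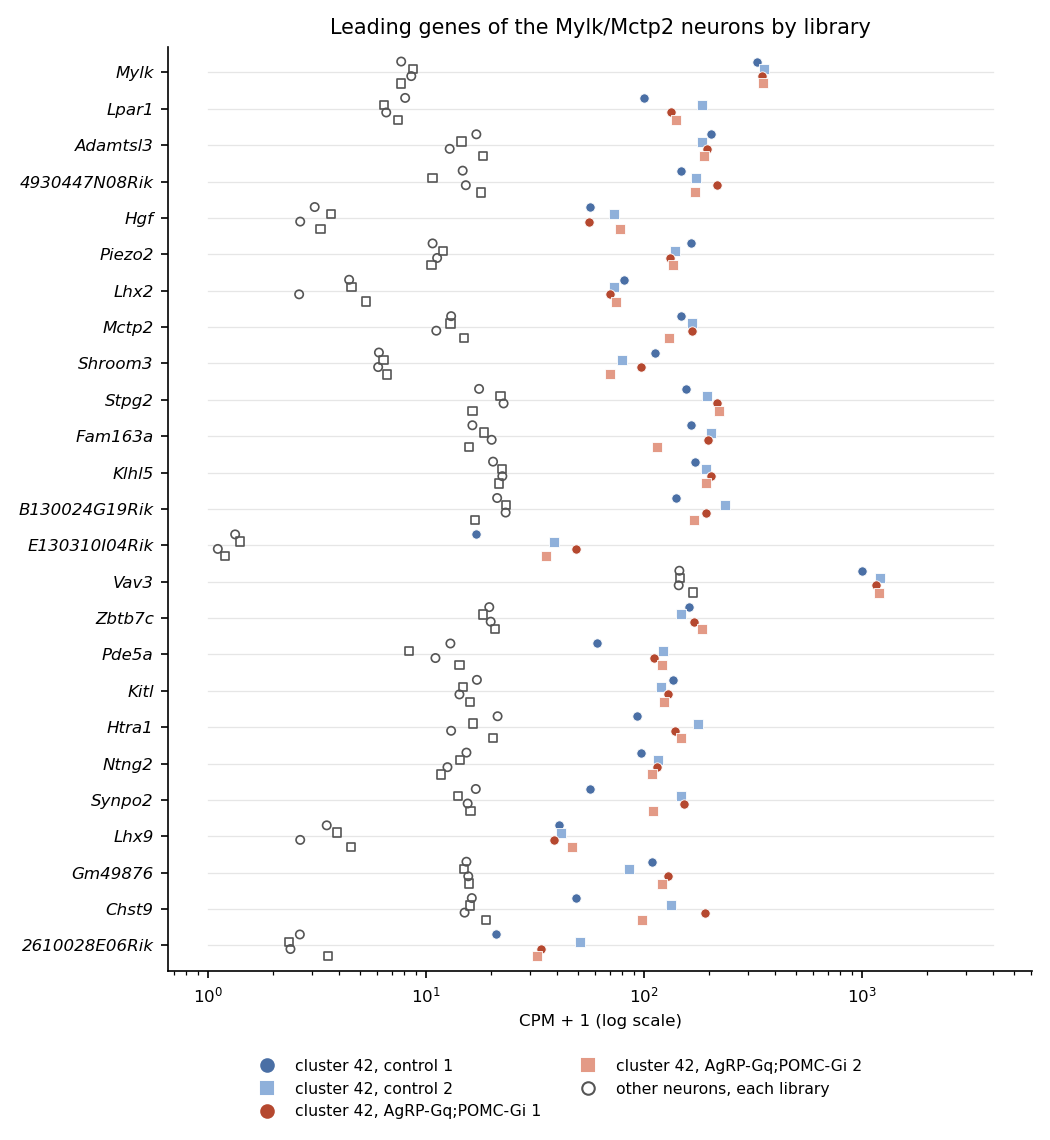
The 25 leading genes of the Mylk/Mctp2 neurons, with CPM + 1 on a log axis; filled points are the summed nuclei of the cluster in each of the 4 libraries and open points are the other neurons of each library. *Mylk* sits between 332 and 355 CPM in all 4 libraries, while *Chst9* has the largest spread for its mean, with 117 ± 59.5 CPM (SD, n = 4).

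Several leading genes shared a locus. *E130310I04Rik* (chr16:34943175-34958994, minus strand) lies antisense inside *Mylk* and was at 34.1 ± 13.4 CPM against 0.265 CPM. *4930447N08Rik* lies on the opposite strand inside *Pde5a*, and *Synpo2* starts on the same chromosome after a gap of 217145 bases. Of the nuclei with a *Mylk* UMI, 34.0% had one of *E130310I04Rik*, against 15.8% of those without. Whether reads of the antisense gene and of *Mylk* were kept apart depends on the strand setting of the count, so the pair is uncertain.

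*Mylk* was far higher in this cluster than in any other neuronal cluster, and *Mctp2* was not. At lower levels *Mylk* was found elsewhere too, with a UMI in 6.10% of the other neurons. Over the other 133 neuronal clusters *Mylk* had a median of 6.07 CPM and reached at most 42.2 CPM, in cluster 178: Npy/Ankfn1. *Mctp2* had a median of 1.69 CPM but reached 332 CPM in cluster 146: Rxfp1/Ebf2, and 2 clusters lay above the Mylk/Mctp2 neurons. Across the 134 clusters, the genes whose level followed *Mylk* most closely were *E130310I04Rik* (Pearson r = 0.68 of log2(CPM + 5)), *Tfcp2* (r = 0.37) and *2610028E06Rik* (r = 0.36). Those closest to *Mctp2* were *Gphn* (r = 0.56), *4930438E09Rik* (r = 0.55) and *Egfr* (r = 0.54). The clusters share libraries and depth, and the correlations are given as a description. No gene was in both sets of 3.

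**Figure D2:**
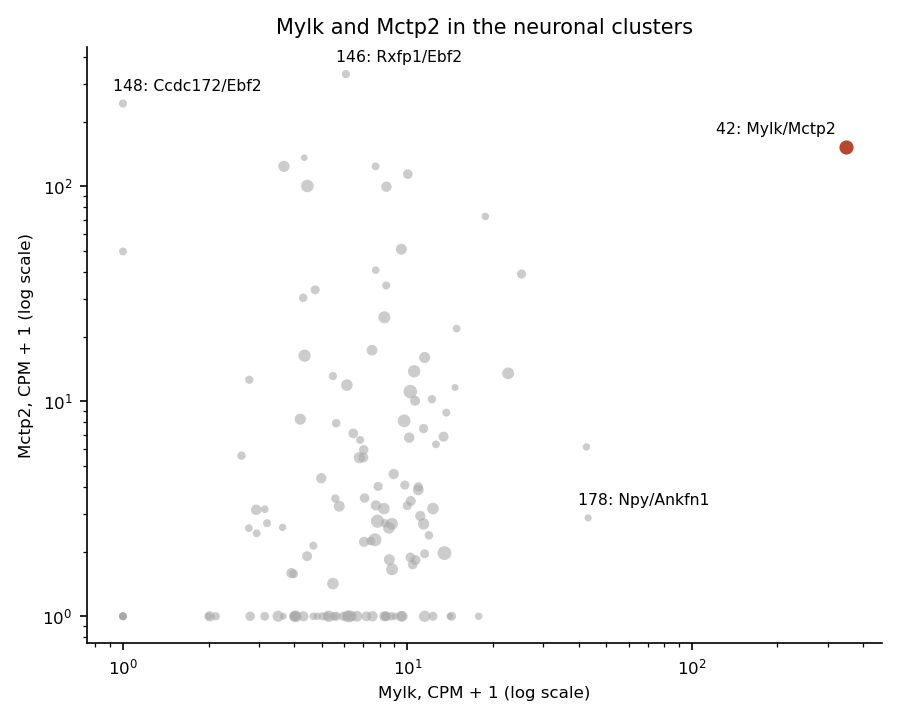
*Mylk* (horizontal) and *Mctp2* (vertical) as CPM + 1 on log axes in the 134 neuronal clusters; each point is a cluster, drawn larger the more nuclei it holds, and the Mylk/Mctp2 neurons are in red. They stand alone at 347 CPM of *Mylk*, while 146: Rxfp1/Ebf2, at 332 CPM, lies higher for *Mctp2*.

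The cluster was glutamatergic by its transmitter genes. *Slc17a6* was at 144, 157, 181 and 163 CPM in the 4 libraries, against 70.5 to 76.2 CPM in the other neurons, and 78.3% of the nuclei had a UMI (95% Clopper-Pearson interval 71.3 to 84.3%). In oligodendrocytes, which should lack the gene, 3.49% had a UMI. At 2000 UMIs per nucleus the shares were 29.3% in the cluster, 13.0% in the other neurons and 2.67% in oligodendrocytes. The inhibitory genes were low: *Slc32a1* was at 3.49 ± 0.367 CPM against 27.5 CPM, the GABA-synthesizing enzyme *Gad2* at 9.00 ± 3.43 against 96.7 CPM, and the glycine transporter *Slc6a5* at 7.05 ± 8.71 against 84.4 CPM. All 6 nuclei with a *Slc32a1* UMI also had one of *Slc17a6*, and their share was 3.61%, against 2.82% of oligodendrocytes. At 2000 UMIs per nucleus these shares were 0% and 1.98%. Of the other glutamate transporters, *Slc17a7* was at 2.28 ± 3.85 CPM and *Slc17a8* at 3.98 ± 4.99 CPM. The catecholamine enzymes *Th* and *Dbh* had 0 UMIs in 166 nuclei, which allows a share of nuclei with a UMI of up to 1.81%. Of the 12 monoamine and acetylcholine genes listed, 5 had 0 UMIs. The vesicular monoamine transporter *Slc18a2* was at 29.1 ± 20.0 against 23.0 CPM. It had a UMI in 23.5% of the nuclei, against 16.6% of the other neurons and 2.93% of oligodendrocytes. The enzyme *Ddc* was at 13.0 ± 26.0 against 13.7 CPM, with all 13 UMIs in 1 nucleus of control replicate 1. *Chat*, which makes acetylcholine, had a UMI in 12.7% of the nuclei (8.00 to 18.7%), against 0.238% of oligodendrocytes. Of other cholinergic genes, the choline transporter *Slc5a7* was at 1.93 ± 1.65 against 9.66 CPM and the vesicular transporter *Slc18a3* at 0.279 ± 0.559 against 0.686 CPM.

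Transcription factors placed the nuclei apart from most hindbrain neurons. *Lhx2* was at 80.0, 72.2, 68.9 and 73.7 CPM, against 1.63 to 4.33 CPM in the other neurons. *Lhx9* was at 40.0, 40.8, 37.9 and 45.8 CPM, against 1.66 to 3.55 CPM. *Barhl2* was at 16.2 ± 3.45 against 0.230 CPM, the highest level of the 134 clusters, while its relative *Barhl1* was at 0.279 CPM and had a UMI in 0.602% of nuclei. Of the 6 genes of a list for precerebellar mossy fibre neurons, these 3 were thus at least 2-fold higher than in the other neurons, after 5 CPM was added to both levels, and *Barhl1*, *Pax6* (0.710 CPM) and *Slc17a7* were near 0. *Evx1*, a homeobox gene of ventral interneurons, was at 12.0, 18.8, 6.89 and 4.47 CPM against 0.386 CPM, and had a UMI in 9.04% of the nuclei. *Sox5* (202 ± 40.8 against 60.2 CPM), *Tshz3* (559.8 ± 153 against 202 CPM) and *Tshz2* (974 ± 75.6 against 483 CPM) were also higher. The lower ones included *Ebf3* (3.26 ± 2.35 against 98.4 CPM), *Nfib* (9.22 ± 6.38 against 107 CPM) and *Bcl11a* (15.8 ± 10.9 against 105 CPM). With 5 CPM added to both levels, a 2-fold difference needs a mean of at least 5 CPM in the cluster or in the other neurons, which 12975 of all genes had, and 325 of these (2.50%) were at least 2-fold higher and 729 (5.62%) at least 2-fold lower. Of the listed Ebf, Nfi, Tshz and related factors 26 had that level, and 3 were at least 2-fold higher and 9 at least 2-fold lower.

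Several lineage genes of the visceral sensory nuclei were at or near 0. *Phox2a*, *Isl1* and *Tbx20* had 0 UMIs, with *Tlx3* at 1.00 ± 2.00 CPM and *Lmx1b* at 3.71 ± 5.58 CPM. Of the 6 inferior olive genes listed, *Htr5b*, *Crh* and *Pou4f1* were at 0.431 to 1.43 CPM. *Foxp2* was at 92.0 ± 36.4 against 71.3 CPM, *Cacna1g* at 50.1 ± 12.4 against 50.4 CPM and *Gjd2* at 6.13 ± 6.92 against 3.71 CPM. The granule cell gene *Gabra6* and the unipolar brush cell gene *Eomes* had 0 UMIs. Along the body axis, *Hoxa3* (26.3 ± 10.4 CPM), *Hoxb3* (35.6 ± 14.1), *Hoxb4* (24.2 ± 6.65), *Hoxb5* (25.1 ± 13.8) and *Hoxc4* (32.5 ± 8.01) were present at levels within 2-fold of the other neurons. *Hoxb8* and *Hoxb9* had 0 UMIs, and of the 27 Hox genes listed 11 had 0 UMIs and 10 reached 5% of the nuclei. Position within the dissected piece was not measured.

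Of 46 neuropeptide genes listed, 9 were detected in 5% or more of the nuclei and 17 had 0 UMIs. At 5 CPM or more in either population were 14, of which 3 were at least 2-fold higher and 5 at least 2-fold lower, against 2.50% and 5.62% of all genes at that level. Somatostatin (*Sst*) was at 72.0, 163, 62.0 and 106 CPM, against 22.9 to 33.1 CPM in the other neurons, and had a UMI in 60.2% of the nuclei against 5.77% of oligodendrocytes. Cholecystokinin (*Cck*) was at 20.0, 50.3, 43.1 and 80.4 CPM against 9.11 to 14.8 CPM, with a UMI in 41.6% of nuclei against 2.35% of oligodendrocytes. Neurotensin (*Nts*) was at 24.5 ± 7.35 against 5.34 CPM and *Cartpt* at 25.8 ± 6.36 against 15.9 CPM. In contrast, *Penk*, the enkephalin precursor, was at 3.49 ± 0.367 against 43.5 CPM. *Agrp*, whose regulatory sequences drive the Cre line, was at 120.1, 141, 89.6 and 102 CPM, against 83.5 to 91.4 CPM in the other neurons. In the most similar clusters (below) it was at 90.6, 90.8 and 77.4 CPM, so the level was not particular to these nuclei. Whether these UMIs come from the transcript of the peptide, or whether any of these nuclei held the receptor, was not tested. *Pomc* had 0, 0, 4 and 2 UMIs.

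**Figure D3:**
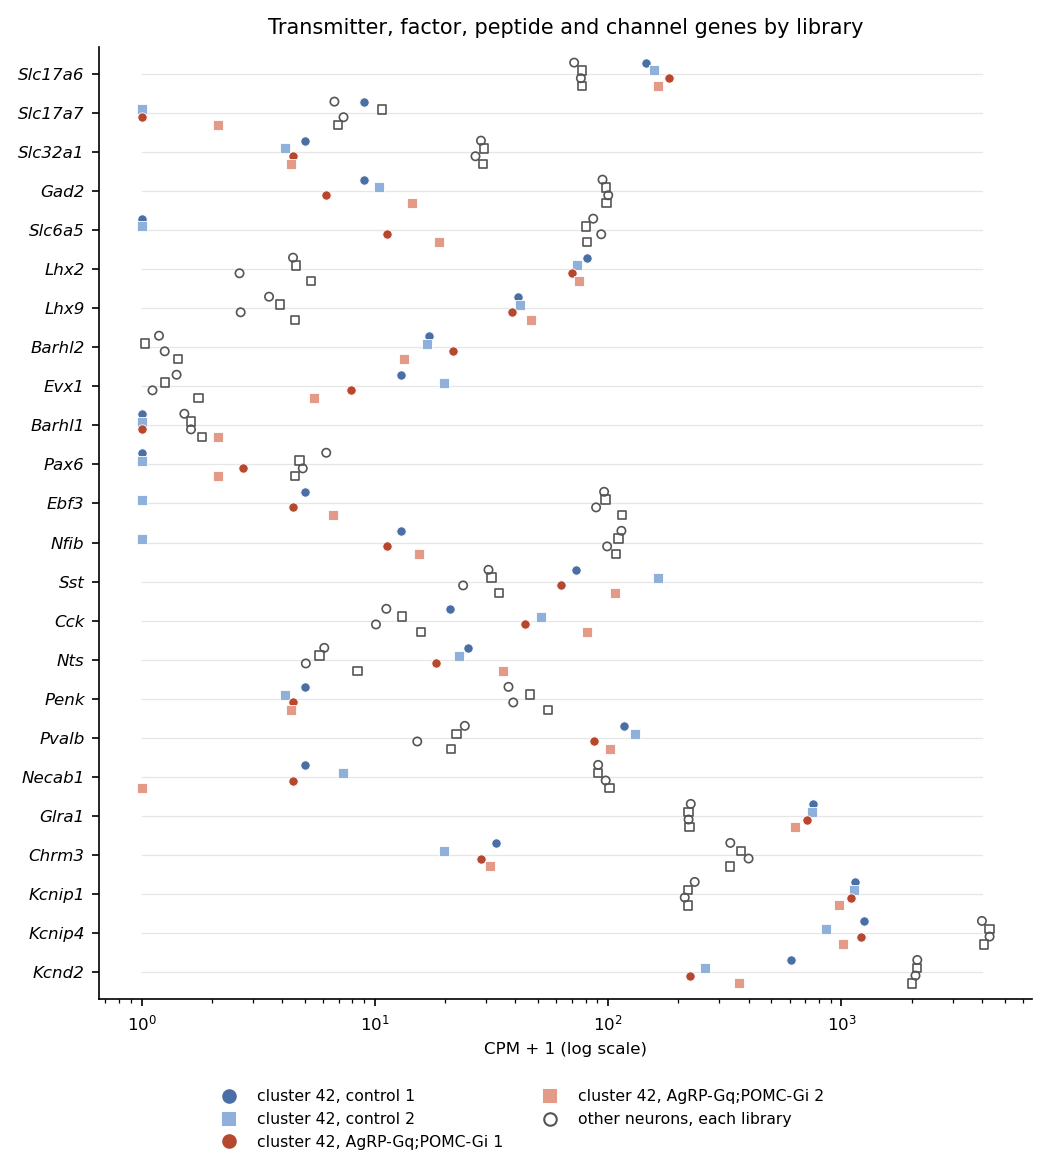
Genes of transmitter release, transcription factors, peptides, calcium-binding proteins, receptors and channels, with CPM + 1 on a log axis; filled points are the cluster in each library and open points the other neurons of each library. *Lhx2* and *Lhx9* lie to the right of the open points and *Slc32a1*, *Ebf3*, *Penk* and *Chrm3* to the left, in all 4 libraries.

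Of 24 listed glutamate receptor genes at 5 CPM or more in either population, 3 were at least 2-fold higher and 4 at least 2-fold lower, and of 17 GABA and glycine receptor genes 1 was higher and 5 were lower, against 2.50% and 5.62% of all genes at that level. The group III metabotropic receptor *Grm8* was at 1349 ± 230.0 against 477 CPM and the kainate receptor *Grik1* at 1102 ± 83.3 against 347 CPM. *Grm7* was at 644 ± 63.3 against 1835 CPM and the AMPA receptor subunit *Gria3* at 94.1 ± 16.3 against 468 CPM. The glycine receptor subunit *Glra1* was at 752, 744, 713 and 629 CPM against a mean of 222 CPM, the highest of the 134 clusters, whereas *Glra3* was at 10.7 ± 4.06 against 113 CPM and the GABA-A subunit *Gabrg3* at 125 ± 70.2 against 811 CPM.

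Of 51 listed receptors and partners for feeding peptides and hormones, 15 were detected in 5% or more of the nuclei, 18 had 0 UMIs, and 25 were at 5 CPM or more in the cluster or the other neurons. Of these 25, 2 were at least 2-fold higher and 7 at least 2-fold lower, against 2.50% and 5.62% of all genes at that level. *Crhr1*, a receptor for corticotropin-releasing hormone, was at 71.8 ± 30.6 against 15.5 CPM and *Ramp1*, a partner of the CGRP receptor, at 22.1 ± 6.75 against 3.40 CPM. *Oprm1*, the mu opioid receptor, was at 40.6 ± 0.608 against 107 CPM. Among monoamine and acetylcholine receptors, 16 of 40 had that level, and 1 was at least 2-fold higher and 8 at least 2-fold lower. That 1 was the dopamine receptor *Drd3*, at 64.0, 18.8, 29.3 and 27.9 CPM against 1.49 CPM, with a UMI in 23.5% of the nuclei. *Htr2c* was at 191 ± 31.5 against 743 CPM, *Chrm3* at 27.1 ± 5.83 against 358 CPM, and *Htr4* at 1.57 ± 2.46 against 62.7 CPM.

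*Kcnip1*, a channel-interacting protein of Kv4 channels, was at 1086 ± 77.8 against 221 CPM, while *Kcnip4* was at 1085 ± 182 against 4176 CPM and the Kv4 subunit *Kcnd2* at 362 ± 172 against 2076 CPM. Its relative *Kcnd3* was at 74.7 ± 54.9 against 129 CPM. *Kcnmb2*, a subunit of BK channels, was at 8.54 ± 7.05 against 175 CPM. Its relative *Kcnmb1*, chosen after its value was seen, had a UMI in 28.9% of the nuclei, against 0.00595% of oligodendrocytes, and it is uncertain because it lies inside *Kcnip1* on the opposite strand. Of 61 channel genes listed, 60 were at 5 CPM or more in either population, and 4 of these were at least 2-fold higher and 17 at least 2-fold lower, against 2.50% and 5.62% of all genes at that level. The fast-spiking marker parvalbumin (*Pvalb*) was at 116, 129, 86.2 and 101 CPM against 14.2 to 23.3 CPM, the highest of the 134 clusters, with a UMI in 65.1% of the nuclei against 4.31% of oligodendrocytes. *Necab1*, another calcium-binding protein, was at 3.43 ± 2.60 against 94.0 CPM. The vesicle calcium sensor *Syt2* was at 263 ± 36.6 against 121 CPM, and *Syt16* at 16.1 ± 7.86 against 146 CPM.

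Among 20 genes of the myosin light chain kinase pathway, *Mylk* was the only one at least 2-fold higher than in the other neurons after 5 CPM was added to both levels. *Mylk2*, *Mylk3* and *Mylk4* had 0 UMIs, *Ppp1r12b*, a subunit of the opposing phosphatase, was at 294 ± 15.0 against 200.4 CPM, and the myosin heavy chain *Myh14* was at 44.2 ± 10.3 against 20.4 CPM, a ratio of 2.17 that was 1.94 with the 5 CPM added. Of 28 C2-domain genes, all at that level in either population, 3 were at least 2-fold higher and 7 at least 2-fold lower, against 2.50% and 5.62% of all genes. The 3 higher ones were *Mctp2*, which names the cluster, *Syt2* and *Syt9* (107 ± 27.3 against 47.1 CPM), and *Mctp1*, the relative of *Mctp2*, was at 132 ± 30.8 against 302 CPM.

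A nucleus of the cluster had UMIs of a median of 16 of the 25 genes (range 4 to 23), against a median of 2 in the other neurons, as the choice of the genes favours, and 4 of 166 nuclei had 5 or fewer. Both *Mylk* and *Mctp2* were found in 111 nuclei, *Mylk* alone in 36, *Mctp2* alone in 9 and neither in 10. Those 10 were 1, 1, 3 and 5 nuclei of the 4 libraries. Nuclei with no *Mylk* UMI had a lower depth, with a median of 7545 UMIs against 11409. Peptides overlapped: 46 nuclei had UMIs of both *Sst* and *Cck*, 54 of *Sst* without *Cck*, 23 of *Cck* without *Sst* and 43 of neither. Counting *Sst*, *Cck*, *Nts* and *Cartpt* together, 35 nuclei had none, 53 had 1, 49 had 2, 27 had 3 and 2 had all 4. *Lhx9* was found in 39.6% of the nuclei with *Lhx2* and in 32.9% of those without it.

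Among the neuronal clusters, the ones most like the Mylk/Mctp2 neurons over 13986 genes were 140: Fgf10/Cpne4 (Pearson r = 0.40 of centred log2(CPM + 5); 61 nuclei), 151: Lhx2/Reln (r = 0.40; 54 nuclei) and 74: Rbm20/Nox4 (r = 0.37; 122 nuclei). The single libraries gave r of 0.27 to 0.40 for the first, 0.27 to 0.37 for the second and 0.24 to 0.36 for the third, so their order was not resolved. None had the name-giving genes at the level of the Mylk/Mctp2 neurons: *Mylk* was at 7.78, 5.82 and 6.51 CPM and *Mctp2* at 0, 5.61 and 16.3 CPM. Cluster 151 had *Lhx2* at 135 CPM and *Lpar1* at 73.3 CPM. Cluster 140 had *Lhx2* at 38.9 CPM, *Lhx9* at 36.1 CPM and *Pvalb* at 92.7 CPM. Both had *Slc17a6*, at 208 and 147 CPM. Cluster 74 had 0 CPM of *Lhx2* and *Lhx9* and 6.34 CPM of *Slc17a6*, with *Adamtsl3* at 119.9 CPM. *Vav3* was at 617, 162 and 448 CPM in clusters 140, 151 and 74. Some genes given above only against the pooled other neurons were near or above the cluster's level in 1 or more of these. In the same order *Tshz2* was at 1559, 1600.3 and 417 CPM and *Tshz3* at 604, 94.9 and 298 CPM. *Crhr1* was at 64.2, 14.8 and 65.7 CPM, *Syt2* at 253, 189 and 267 CPM and *Grik1* at 22.5, 388 and 1224 CPM. *Drd3* (0, 0 and 1.21 CPM) and *Ramp1* (1.42, 3.36 and 1.01 CPM) stayed low there.

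The cluster held a larger share of neurons in both AgRP-Gq;POMC-Gi libraries than in both controls. It held 18 of 2470 neurons (0.729%, 95% Clopper-Pearson interval 0.432 to 1.15%) and 27 of 2736 (0.987%, 0.651 to 1.43%) in control replicates 1 and 2. In AgRP-Gq;POMC-Gi replicates 1 and 2 it held 48 of 3696 (1.30%, 0.959 to 1.72%) and 73 of 3637 (2.01%, 1.58 to 2.52%). The groups did not overlap, but 33 of 134 neuronal clusters (24.6%) were likewise higher in both AgRP-Gq;POMC-Gi libraries. The means were 0.858 ± 0.183% and 1.65 ± 0.501% (SD, n = 2), a ratio of 1.93, and the exact two-sided permutation test gave p = 0.333, the smallest that 2 libraries against 2 allow. By that ratio the cluster ranked 18 of the 134. The share of all nuclei that were neurons differed too, at 25.4% and 27.2% in the controls and 38.0% and 36.5% in AgRP-Gq;POMC-Gi, so that the makeup of the libraries and the genotype cannot be told apart. In the clusters most like it the ratio was 1.10, 1.29 and 0.469.

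**Figure D4:**
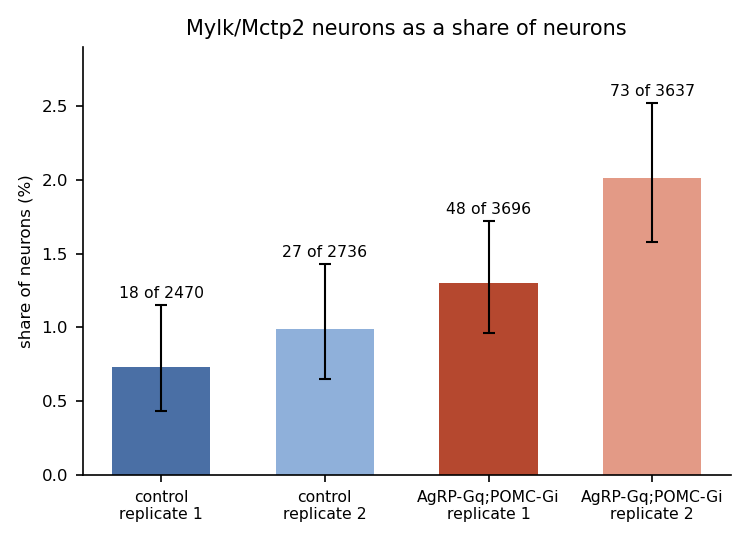
Share of neurons (%) that belonged to the Mylk/Mctp2 cluster in each library; bars are the shares, starting at 0, with 95% Clopper-Pearson intervals that cover counting error only, and the counts stand above. The shares run from 0.729% in control replicate 1 to 2.01% in AgRP-Gq;POMC-Gi replicate 2.

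The genes that define the cluster did not differ detectably between the groups. Nuclei were assigned by expression, so a test of these genes within the cluster cannot decide whether genotype changed them. When UMIs were summed per library and compared by the quasi-likelihood test of edgeR, 4 of 12039 genes (0.0332%) passed a Benjamini-Hochberg adjusted p of 0.05, and 570 (4.73%) had an unadjusted p under 0.05. *Mylk* had a log2 difference (AgRP-Gq;POMC-Gi against control) of 0.09 (SE 0.20, edgeR adjusted p = 0.999), *Mctp2* of -0.05 (SE 0.24, adjusted p = 0.999), and *Slc17a6* of 0.24 (SE 0.23, adjusted p = 0.999). Of the 10 immediate early genes with which the study scored activation, 7 were expressed widely enough to be tested, and none passed with edgeR, nor did any have an unadjusted p under 0.05. *Homer1* was at 52.0, 104, 98.2 and 73.7 CPM and *Nr4a1* at 36.0, 25.1, 29.3 and 20.1 CPM, with overlapping groups. *Fos* had a UMI in 3.61% of the nuclei and was at 0, 3.14, 0 and 6.70 CPM. *Fosl2* had 0 UMIs.

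The 4 genes that passed were all lower in AgRP-Gq;POMC-Gi mice, and for 3 of them most control UMIs came from a few nuclei. The summed oligodendrocyte and astrocyte markers were lower in the same libraries, and their part in the calls was not tested. *Kcnq5*, a subunit of M-type potassium channels (chr1:21398403-21961942, minus strand), had 32, 134, 19 and 25 UMIs in the 4 libraries, found in 4, 4, 6 and 6 nuclei, and 127 of the 134 in control replicate 2 were in 1 nucleus. Its log2 difference was -3.18 (SE 0.33, edgeR adjusted p = 1.88e-08), and it was -3.75 and -2.04 without control replicate 1 and 2. *Zfp536*, a zinc finger repressor, had 23, 25, 7 and 9 UMIs in 3, 4, 3 and 7 nuclei, and 1 nucleus of each control library held 17 (log2 difference -2.89, SE 0.41, edgeR adjusted p = 6.02e-05). *Tafa1*, a secreted neuronal protein, had 11, 20, 3 and 7 UMIs, 18 of them in 1 control nucleus (log2 difference -2.92, SE 0.51, edgeR adjusted p = 0.00293). The other neurons had *Kcnq5* at 493 to 566 CPM, *Zfp536* at 211 to 272 CPM and *Tafa1* at 504 to 545 CPM, above the cluster's level in every library. The control replicate 2 nucleus with 127 *Kcnq5* UMIs also held 17 of *Zfp536*, 18 of *Tafa1* and 2 of *Mylk*. A control replicate 1 nucleus, the deepest of the cluster with 39714 UMIs, held 13, 17 and 4 of them and 3 of *Mylk*. Without these 2 nuclei, an alternative chosen after seeing the data, 0 genes passed (541 at an unadjusted p under 0.05), and the 3 log2 differences were -0.72, -1.25 and -1.32. That alternative takes nuclei from the controls only. Leaving out the top nucleus of each gene in every library, also chosen after seeing the data, gave -1.71, -2.29 and -1.52. There 5 genes passed with edgeR, none of them these 3.

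*5730522E02Rik* was spread over more nuclei. It had 25, 56, 24 and 54 UMIs in 10, 18, 12 and 31 nuclei, that is 55.6% and 66.7% of the control nuclei and 25.0% and 42.5% of those from AgRP-Gq;POMC-Gi mice. Its level was 138 ± 53.6 and 50.8 ± 13.4 CPM (SD, n = 2), and its log2 difference was -1.38 (SE 0.28, edgeR adjusted p = 0.0423). It was also called when, for each gene and library, the nucleus with most of its UMIs was left out, but not without the 2 control nuclei (log2 difference -1.28, edgeR adjusted p = 0.412). Nor was it called by edgeR in the nuclei with a *Mylk* or *Mctp2* UMI (adjusted p = 0.192), under filterByExpr (adjusted p = 0.166), or when AgRP-Gq;POMC-Gi replicate 1 was left out (adjusted p = 0.458). With DESeq2, 0 genes passed (69 at an unadjusted p under 0.05), and without either control library edgeR also gave 0, with 428 and 477 genes at an unadjusted p under 0.05.

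**Figure D5:**
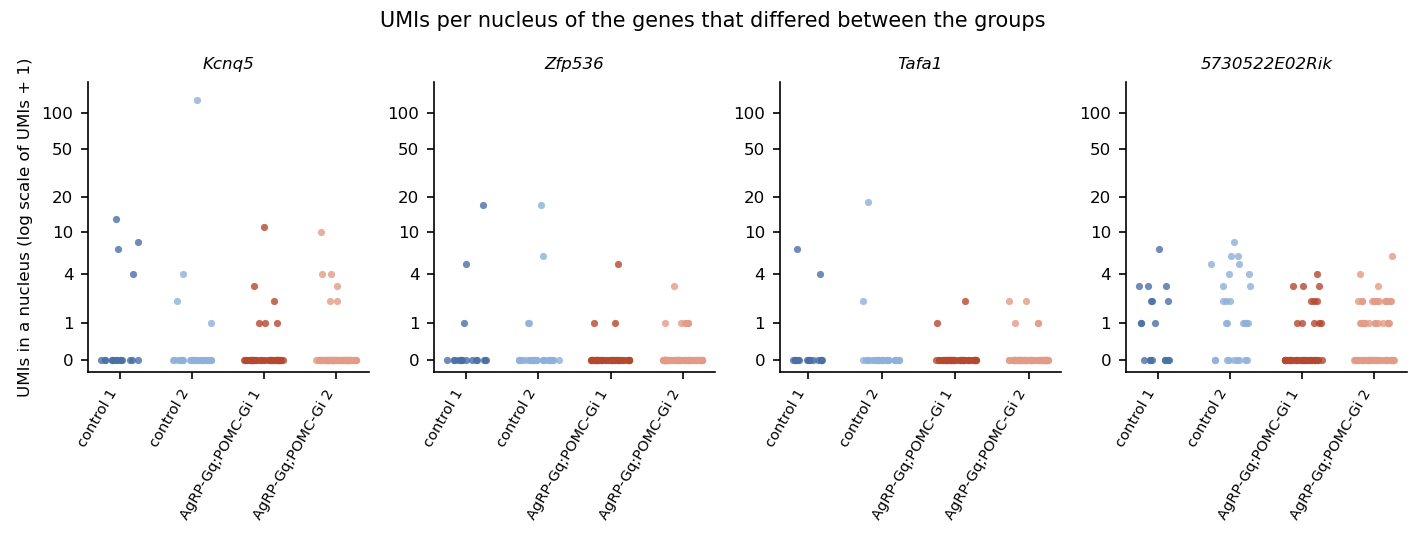
UMIs in each nucleus of the cluster for the 4 genes that passed the test between the groups, by library, on a log axis of UMIs + 1 labelled in UMIs; each point is a nucleus, shifted sideways at random. For *Kcnq5* a single control replicate 2 nucleus stands at 127 UMIs, whereas *5730522E02Rik* reaches at most 8 UMIs in any nucleus.

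Whether the response to genotype was particular to the cluster was asked with the interaction of population (cluster or other neurons) and genotype, each library being a block. It was called for 21 of 12812 genes (0.164%), 20 of them with a lower difference in the cluster. Among the calls shared with the test within the cluster were *Kcnq5* (-3.30, SE 0.27, edgeR adjusted p = 2.02e-21), with a log2 difference of 0.18 in the other neurons, and *Zfp536* (-2.67, SE 0.39, adjusted p = 4.44e-07), with -0.20. Without the 2 control nuclei, 2 of the 21 remained, *Gm32647* and *Ebf2*, with UMIs in 8 and 4 nuclei of the cluster. Both were found in under 5% of its nuclei and entered this test only through the other neurons. The single gene with a higher difference, named after its value was seen, was the noncoding RNA *Gm13832*, with UMIs in 124 nuclei, at most 9 in any of them. It had UMIs in 55.6% of the nuclei of each control library and in 83.3% and 80.8% of those from AgRP-Gq;POMC-Gi mice. Its level was 102 ± 19.9 and 189 ± 18.5 CPM (SD, n = 2). Its interaction was 1.14 (SE 0.25, edgeR adjusted p = 0.00647), but its difference within the cluster, 0.92 (SE 0.25), did not pass (edgeR adjusted p = 0.396).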

How the data were processed

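Per the file headers and the study's methods, the deposited count matrices hold raw UMI counts that the authors made with Cell Ranger 7.0.0 on GRCm38 (mm10), before their own filter. The authors computed the percent of mitochondrial UMIs in Seurat 4.3.0, removed doublets, clustered on an scVI embedding and named clusters. Among kept nuclei the lowest depth was 800 UMIs, the lowest gene number 500 and the highest mitochondrial share 9.94%, and their cell type and cluster names were used as deposited. Here UMIs of the cluster were summed per library (249883 to 895087 UMIs), since nuclei are not replicates, and replace the mixed model over nuclei that the study used. Genes with a UMI in 5% of the nuclei entered edgeR 4.0.16 (R 4.3.3) with TMM factors, a quasi-likelihood test and Benjamini-Hochberg adjustment over all genes tested. For the interaction, 5% of the nuclei of the cluster or of the other neurons sufficed. The test was checked on simulated sums with a common dispersion for all genes, where most 2-fold changes were not recovered. The simulation held no outlying nuclei, so the check does not cover calls that rest on a few nuclei. Shares were compared with an exact permutation test (scipy 1.17.1). CPM values are means ± SD over 4 libraries, and the cluster against other neurons has no test, since clusters were built from expression. Clopper-Pearson intervals and the limit for a count of 0 (3 counts) cover counting error only. Samples were grouped by the genotype labels.

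Named are *Mylk* and *Mctp2*, the 25 leading genes (ranked by the ratio of levels after 5 CPM was added to both), of 33 gene lists the members of highest level or largest ratio and those near 0, the study's early genes, in the report at most 10 genes past each genotype test (the closing section gives all 21 of the interaction), and the 3 genes closest to each name-giving gene. The cluster, lists and rule were chosen with earlier results of these data known. Alternatives were DESeq2 1.42.0, other filters and scaling, a replicate block, depth minimums and leaving out each library, and 3 more were added after seeing the data. The transgenes were not counted here. Some genes of the lists are not reported here.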

Additional observations from a re-analysis of the deposited data

Results flagged for a closer look

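The difference between the groups was itself different in the Mylk/Mctp2 neurons and in the other neurons for 21 genes, by edgeR's test of the interaction, and each is given here as the log2 difference in the cluster less that in the other neurons. It was higher in the cluster for 1 gene, *Gm13832*, at 1.14. It was lower for the other 20. Among those that also differed within the cluster, the values were -3.30 for *Kcnq5*, -2.67 for *Zfp536*, -3.00 for *Tafa1* and -1.42 for *5730522E02Rik*.

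Genes with UMIs in at most 8 nuclei of the cluster had the most negative values. Each was found in under 5% of its nuclei, and so entered the test only through the other neurons. These were *Pard3bos1* (-10.88, with 6 UMIs in 3 nuclei), *4930438E09Rik* (-5.63, 17 UMIs in 3 nuclei), *Gm32647* (-5.34, 34 UMIs in 8 nuclei), *Baiap3* (-5.06, 11 UMIs in 4 nuclei), *Ebf2* (-4.68, 29 UMIs in 4 nuclei, 22 of them in 1) and *Pard3b* (-4.42, 15 UMIs in 7 nuclei). *Pard3bos1* had 0 UMIs in both AgRP-Gq;POMC-Gi libraries, so that its fitted value depends on the prior count and is not a bound.

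Of the rest, *Ptprk*, an adhesion phosphatase, was at -2.05, the noncoding RNA *B230209E15Rik* at -2.08, and *Adarb2*, an RNA-binding relative of editing enzymes, at -1.70. The reelin pathway adaptor *Dab1* was at -1.54, the potassium channel subunit *Kcnd3* at -1.40, the dystrophin gene *Dmd* at -1.24 and *Egfem1* at -1.22. The smallest values were those of the neuregulin receptor *Erbb4* (-1.11), *Ralyl* (-0.89) and the Kv4 partner *Dpp10* (-0.78), which had UMIs in 39, 73 and 98 nuclei. *Erbb4* had 103, 23, 51 and 121 UMIs in the 4 libraries, 56 of them in 1 nucleus of control replicate 1.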

How the results depend on the processing

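The number of genes called between the groups within the cluster, 4 with edgeR, was 0 with DESeq2 (69 at an unadjusted p under 0.05), 17 with no filter on genes, and 0 without the 2 control nuclei (541 at an unadjusted p under 0.05). Leaving out each library gave 0 to 15. It was 0 without control replicate 1 or 2 and 15 without AgRP-Gq;POMC-Gi replicate 2, where the lone library is assumed to vary like the others. The 21 interaction calls became 2 with DESeq2, 11 when the top nucleus of each gene and library was left out, 2 without the 2 control nuclei, and 13 to 45 with a library left out (13 without AgRP-Gq;POMC-Gi replicate 1, 45 without control replicate 2). Without control replicate 1 the fitted interaction changed sign for *Ebf2* (7.84), *4930438E09Rik* (6.19) and *Adarb2* (0.19), all with edgeR adjusted p over 0.9. For *Ebf2* and *4930438E09Rik* the control library that remained had 0 UMIs, so that these values depend on the prior count and give no direction, and 26 of 29 and 16 of 17 UMIs were in the library left out. Over the libraries left out the values ranged from -5.80 to 7.84 for *Ebf2*, from -11.85 to 6.19 for *4930438E09Rik* and from -2.67 to 0.19 for *Adarb2*. *Egfem1* moved from -1.22 to -0.23 without control replicate 1. *Dmd* moved from -1.24 to -0.84 without AgRP-Gq;POMC-Gi replicate 1. For the counts of calls the cause was not tested. The correlation of deviations was 0.0176 for replicates 1 and 2. With 2 libraries per group this is a single number, so it cannot decide whether the replicate numbers pair the samples. The choroid plexus gene *Ttr*, given above, was far higher in replicate 2 than in replicate 1 of both groups. Whether libraries of the same replicate number shared a preparation was not tested. With the replicate numbers as a replicate block 3 genes were called, without *5730522E02Rik* (edgeR adjusted p = 0.0696).

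As the mean of each nucleus, *Mylk* was at 387 CPM and *Slc32a1* at 2.48 CPM. At 2000 UMIs a nucleus, the share of nuclei with a UMI was 48.2% for *Mylk*, 23.8% for *Mctp2*, 29.3% for *Slc17a6* and 0 for *Slc32a1*, fewer UMIs being read. Of 162 levels of 27 genes under alternatives, 159 stayed within 1 SD. Leaving out a single library cannot move a mean over 4 libraries by 1 SD, so alternatives of that kind could not have failed. The order of the most similar clusters depended on the measure: by Spearman correlation cluster 74 ranked 1 (0.39) and clusters 140 and 151 ranked 4 and 5 (both 0.35), and over genes of at least 100 CPM cluster 74 ranked 5 (0.35). With a library left out r was 0.34 to 0.40 for cluster 151 and 0.34 to 0.39 for cluster 140. The difference in share of neurons, 0.795 percentage points, was 0.441 to 1.15 with a library left out. It had to stay positive there, since the shares of the groups did not overlap. The difference was 0.386 of all nuclei and 1.03 in nuclei of at least 5000 UMIs.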

Other observations

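Several gene groups have not been described above. Of 16 classical cadherins, cell adhesion proteins, *Cdh20* was at 375 CPM in the Mylk/Mctp2 neurons against 95.7 CPM in the other neurons and *Cdh12* at 989.8 against 488 CPM, while *Cdh18* was at 451 against 1943 CPM. All 6 pan-neuronal genes were detected, with *Nefm*, a neurofilament of large neurons, at 228 against 114 CPM. *Kcnn1*, a calcium-activated potassium channel, was at 24.1 against 4.26 CPM, the highest of the 134 clusters, and the calcium channel *Cacna1e* was at 82.3 against 336 CPM. These values are descriptions of the cluster, with no test.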
